A study of Mus musculus with 12 samples.

Results

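The 48 genes described here encode the parts that build and sort the primary cilium, and they were chosen by name from cilium biology, out of 24824 genes in the table: 6 of intraflagellar transport complex A (IFT-A), 12 of complex B (IFT-B), 7 of the BBSome, 2 BBSome partners, 5 motor subunits, 11 transition zone proteins, 3 basal body proteins and 2 proteins of the ciliary membrane. The choice was made with earlier results of these data known. All 48 were in the table, and 46 averaged 1 FPKM or more across the 12 libraries and entered the tests. FPKM counts the fragments of a gene scaled by the gene's length and by the size of the library. RNA was taken from AML12 cells, a line of immortalized mouse hepatocytes labelled wild type, after 24 h. Cells of group A were kept in standard growth medium. Those of group B were given copper (300 μM CuCl2) together with elesclomol (40 nM), which ferries copper into cells, a pair abbreviated Cu/ES. In group C taurocholic acid (TCA, a bile acid, 1000 μM) came on top of Cu/ES, and in group D it was given by itself at the same dose. There were 3 libraries per group, and the study asked which transcripts copper overload changes and what TCA adds to it. As nothing states that the libraries of a group came from separate cultures, the p-values below measure the spread between these libraries, which may be technical.

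The primary cilium is a single antenna on the surface of many cells, and it carries the receptors of smoothened (Hedgehog) signaling. IFT-B, pulled by kinesin-2, moves cargo to the tip, and IFT-A, pulled by dynein-2, moves it back. The BBSome is a coat that carries membrane proteins out of the cilium, and the transition zone is the gate at its base. In the liver the cells of the bile ducts bear primary cilia, whereas hepatocytes in the tissue are known as cells that mostly lack them.

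Promoters are shown because many ciliary genes share the X-box, the site of RFX transcription factors, and because most of these genes fell together here. RefSeq (GRCm38.p6) gave a window from 250 bases before to 50 bases after the start site for 43 of the 48 genes. The searched letters were GTNNCC, then any 2 bases, then GGNNAC, a pattern that reads alike on both strands, and they were found in 10 of the 43 windows (23.3%), against 583 of the 27025 genes with a window (2.16%). By group, 3 of 7 BBSome genes, 4 of 10 transition zone genes, 1 of 5 IFT-A genes and 2 of 10 IFT-B genes held them, and the motors, BBSome partners, basal body and ciliary membrane genes held none. The matches follow, each read 5′ to 3′ on the strand of its gene, all of it in capitals because the whole run is the match.
Bbs1, chr19:4906613-4906626, minus strand: GTTGCCAAGGCGAC
Bbs4, chr9:59353472-59353485, minus strand: GTCGCCCGGGAAAC
Bbs7, chr3:36613497-36613510, minus strand: GTTGCCTTGGAAAC
Ift22, chr5:136908087-136908100, plus strand: GTTTCCTGGGCTAC
Ift22, chr5:136908117-136908130, plus strand: GTCGCCGTGGAAAC
Ift57, chr16:49699207-49699220, plus strand: GTTGCCGTGGTGAC
Mks1, chr11:87853191-87853204, plus strand: GTTGCCAGGGGAAC
Tctn1, chr5:122264411-122264424, minus strand: GTTGCCCGGGCAAC
Tctn2, chr5:124598687-124598700, plus strand: GTTACCATGGCTAC
Tmem231, chr8:111933789-111933802, minus strand: GTTGCCGTGGAGAC
Wdr19, chr5:65199662-65199675, plus strand: GTCTCCTGGGTGAC
In Bbs7, Ift22, Ift57, Mks1, Tctn2 and Wdr19 the match lay before the start site, and in Bbs1, Bbs4, Tctn1 and Tmem231 it lay within the 50 bases after it. A shorter form, with 1 base between GTNNCC and GGNNAC, stood in 2 windows (4.65%, against 1.18% of all genes), those of Ift57 and Tctn3, and it shares no base with the longer match in Ift57.

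The 150 bases before the start site are given for 4 genes: a pair with a match (capitals), Bbs7 and Ift57, and a pair without one, Ift52, which fell furthest of the 46 genes tested after Cu/ES on the log2(FPKM + 1) scale, though not as a share of the control, and Ift74, which did not fall.
Bbs7, chr3:36613390-36613539, minus strand: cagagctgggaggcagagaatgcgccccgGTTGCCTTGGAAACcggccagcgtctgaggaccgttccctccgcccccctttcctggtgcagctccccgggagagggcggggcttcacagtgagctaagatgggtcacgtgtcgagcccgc
Ift57, chr16:49699144-49699293, plus strand: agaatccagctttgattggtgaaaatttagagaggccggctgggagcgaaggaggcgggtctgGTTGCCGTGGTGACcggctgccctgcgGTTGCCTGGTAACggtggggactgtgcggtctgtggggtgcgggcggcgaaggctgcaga
Ift52, chr2:163017203-163017352, plus strand: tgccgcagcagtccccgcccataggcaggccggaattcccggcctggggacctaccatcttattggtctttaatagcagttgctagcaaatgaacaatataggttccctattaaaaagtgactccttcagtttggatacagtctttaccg
Ift74, chr4:94614341-94614490, plus strand: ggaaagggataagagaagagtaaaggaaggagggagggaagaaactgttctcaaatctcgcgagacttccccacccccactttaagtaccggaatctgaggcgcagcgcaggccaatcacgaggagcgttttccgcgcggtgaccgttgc
Of the 10 genes with an X-box, 8 were tested and 7 of these fell past both thresholds in group B vs. A, the exception being Bbs4; of the 33 with a window but no X-box, all were tested and 23 fell, where 53.0% of all genes tested fell past both. The thresholds are an adjusted p of 0.05 and a log2 fold change of 1. The median log2 fold change was -1.60 with the letters and also -1.60 without them. A match describes the letters alone and not binding.

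Library totals, read back from the steps between FPKM values, ran from 38298857 to 39108519 reads in group A, 30773752 to 32002324 in B, 29115011 to 34912748 in C and 39444420 to 39782142 in D. A member had 104 to 4235 reads per library in group A and 2 to 1931 in group B, so the lowest values below rest on few reads. In every group the library numbered 2 stood apart from the libraries numbered 1 and 3, most of all C2, and counts are given below with and without these 4 libraries. Several defining hepatocyte markers were at or near 0 throughout, and others were higher with Cu/ES. Alb was listed at 0 in 10 of 12 libraries and did not exceed 0.0758 FPKM, Hnf4a did not exceed 0.0304 and Fgb did not exceed 0.0191, whereas Krt8 (344 ± 37.7 FPKM in group A) and Krt18 (285 ± 22.7), which many epithelia share, were high (mean ± SD, n = 3 libraries). Asgr1 went from 0.0789 ± 0.0617 FPKM in group A to 3.84 ± 0.343 in B and 12.6 ± 3.29 in C, Apoe from 1.73 ± 0.243 to 7.96 ± 0.580 and 20.5 ± 1.24, Apoa1 from 0.00863 ± 0.0149 to 1.86 ± 0.634 and 1.11 ± 0.120, and Trf from 0.00740 ± 0.00641 to 0.718 ± 0.262 and 0.537 ± 0.275. Of the bile duct list Krt19 stood at 268 ± 45.2 and Spp1 at 673 ± 19.3 in group A, and Vim of the fibroblast list at 2080 ± 87.2. Of the 6 macrophage markers Adgre1, Ptprc and Lyz2 did not exceed 0.0844 FPKM and Csf1r did not exceed 0.487, whereas Cd68 stood at 92.2 ± 17.1 FPKM in group A and 27.2 ± 2.42 in group B, and Cd14 at 6.22 ± 0.572 and 1.78 ± 0.622. Summed over its genes in the table, the hepatocyte list stood at 598 to 651 FPKM in group A, 248 to 300 in B, 205 to 238 in C and 701 to 721 in D (1 fell and 2 rose of 4 tested in B vs. A past both thresholds). Summed over its genes in the table, the bile duct cell list stood at 920 to 1004 FPKM in group A, 1242 to 1406 in B, 739 to 953 in C and 743 to 790 in D (1 fell and 2 rose of 4 tested in B vs. A past both thresholds). Summed over its genes in the table, the fibroblast or stellate cell list stood at 2111 to 2328 FPKM in group A, 298 to 353 in B, 154 to 196 in C and 1807 to 1929 in D (3 fell and 0 rose of 3 tested in B vs. A past both thresholds). Summed over its genes in the table, the macrophage list stood at 79.4 to 108 FPKM in group A, 25.9 to 31.6 in B, 25.2 to 37.9 in C and 32.2 to 45.2 in D (2 fell and 0 rose of 2 tested in B vs. A past both thresholds). The hepatocyte sum is mostly Krt8 (183 ± 16.4 FPKM in group B) and Krt18 (81.9 ± 11.9), and its fall follows theirs. Apoe, Asgr1, Apoa1 and Trf were higher in group B, as given above. The bile duct sum is mostly Spp1 (1190 ± 94.9 in group B), the fibroblast sum Vim (330 ± 32.6) and the macrophage sum Cd68. The part of these cell type genes in the results below was not tested.

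Untreated cells expressed nearly the whole set. In group A 47 of the 48 genes had a mean of at least 1 FPKM, with a median of 5.5 and a range from 0.687 (Bbs1) to 29.3 (Ift43). In FPKM, which is per length, the motors had the highest median of the 8 groups of genes (11.4), and among the complexes IFT-B followed (6.61), IFT-A (5.80), the BBSome (4.89) and the transition zone (2.87). The ranges of these groups overlapped widely. The 48 genes together summed to 361.1, 392.4 and 357.6 FPKM in the 3 libraries of group A and to 124.5, 128.7 and 131.0 in group B. They summed to 119, 118 and 124 in group C and to 331, 349 and 327 in group D. The libraries with Cu/ES lay apart from those without it, with or without TCA.

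After Cu/ES most of the set was lower. In group B vs. A, 32 of the 48 genes fell past both thresholds, set at 0.05 for the adjusted p and at 1 for the size of the log2 fold change, and none rose past both. The test was limma on log2(FPKM + 1), one fit of all 12 libraries, adjusted by Benjamini-Hochberg over 10615 genes, and the SE values below come from it. Of all genes tested, 53.0% fell and 10.1% rose past both thresholds, so a fall was the commonest outcome in these cells and the 32 are to be read against that share. At the adjusted p alone 42 members fell (72.0% of all genes did) and 2 rose, Ift74 and Bbs4 (20.1% of all genes did), whereas Bbs9 and Dync2li1 did not pass. Without the libraries numbered 2, 30 members fell past both and none rose. No library overlapped between groups in 43 of the 48 genes on the lower side (72.4% of genes tested) and in 2 on the higher side (20.5%).

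The median gene tested moved by -1.10 on the log2 scale, and the 48 members had a median of -1.58, with 31 of them below the median gene. As a share of group A, the median member kept 16.5% of its FPKM in group B and the median gene tested kept 39.5%. Under 25% remained in 30 members and under 10% in 14, and 3 stood at 100% or more. Of all genes tested 76.2% were lower, and their shares under 25% and 10% were not counted. In bulk RNA fewer cells of a kind and less RNA per cell cannot be told apart. Scaling by median ratios, which shifted the median gene by 1.07, to -0.03, left 18 members lower and 4 higher past both thresholds, against 25.6% and 26.0% of all genes. The sign then turned from lower to higher in 9 members, Ift43, Ift20, Ift27, Ift80, Arl6, Dync2li1, Tmem67, Cep290 and Ttbk2. Genes of dividing cells moved as well: 9 of 10 fell past both thresholds, their summed level going from 567 to 576 FPKM in group A down to 125 to 158 in group B, and their part in the result was not tested.

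**Figure D1:**
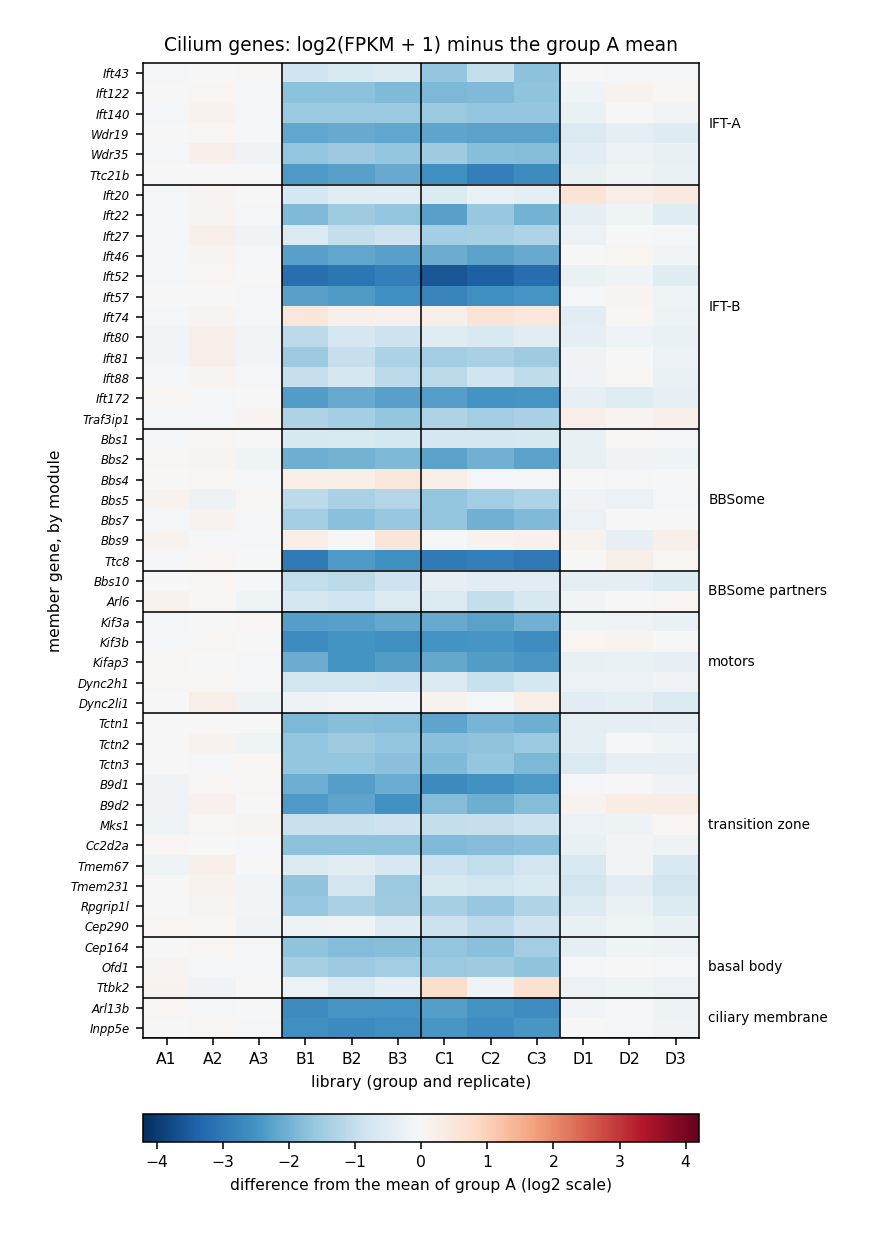
Heat map of the 48 cilium genes (rows, by complex) in the 12 libraries (columns), coloured by log2(FPKM + 1) minus the mean of group A. Columns of groups B and C are blue for most rows, with Ift74, Bbs4 and Bbs9 pale or red, and columns of group D stay close to white.

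All 6 IFT-A genes fell at the adjusted p in group B vs. A (72.0% of all genes tested did), 5 of them past both thresholds (53.0%). This complex returns cargo from the tip and also brings membrane receptors in. The median member kept 16.6% of its level in group A. Ttc21b (THM1), a subunit of the complex's periphery, fell furthest on the log2 scale. It read 20.3, 21 and 20.7 FPKM in the libraries of group A and 3.20, 3.47 and 4.02 in those of group B. The groups did not overlap, and the log2 fold change was -2.25 ± 0.09 (SE, adjusted p = 1.03e-11). As a share of the control, Ift140 and Wdr19, which belong to the core of IFT-A, were lower still, at 5.47% and 6.16%. Wdr35 stood at 16% and Ift122 at 19.3%. Ift43, a small subunit, was the exception of the complex. It read 27.5, 29.9 and 30.5 FPKM in group A against 16, 18.6 and 19.4 in group B, still without overlap, a log2 fold change of -0.68 ± 0.14 (SE, adjusted p = 0.000454). Its direction turned to 0.56 with median-ratio scaling.

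IFT-B held falls and a rise. Of 12 genes 11 fell and 1 rose at the adjusted p, where 72.0% and 20.1% of all genes tested did. Past both thresholds 7 fell, a share near the 53.0% of all genes. The levels left ran from 7.55% (Ift57) to 128% (Ift74) of group A, with a median of 23.0%. Ift52, a scaffold of the IFT-B core, fell furthest on the log2(FPKM + 1) scale, while Ift57 and Ift46 kept smaller shares of group A. Its 3 libraries of group A held 24, 27 and 25.3 FPKM and those of group B 1.97, 2.20 and 2.60, with no overlap (log2 fold change -3.02 ± 0.12, SE, adjusted p = 5.26e-12). Ift46, which binds Ift52, kept 8.06%, Ift172 kept 9.79%, Ift22 19.97% and Traf3ip1 (IFT54) 19.9%. Ift81 kept 31.2% and Ift88 26%. These falls were larger than the spread between libraries.

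Ift74, the partner of Ift81 in binding tubulin, went the other way. It read 4.33, 5.01 and 4.32 FPKM in group A against 6.78, 5.40 and 5.34 in group B. All 3 libraries of group B were above those of group A, and the log2 fold change was 0.30 ± 0.13 (SE, adjusted p = 0.0469). The call was lost without A1 (adjusted p = 0.116), A3 (0.116) or B1 (0.193), and the direction turned to -0.015 with TPM scaling (adjusted p = 0.926), while over its alternatives the adjusted p ran from 2.27e-07 to 0.926. Ift81 itself fell, from 4.95, 6.50 and 5.01 to 1.25, 2.30 and 1.58 FPKM, so the partners' values went in opposite directions. Ift20, Ift27 and Ift80 fell by less than the fold threshold, to 67%, 54.6% and 50.01% of group A. Ift88 also stayed under it (log2 fold change -0.94 ± 0.12, SE, adjusted p = 3.84e-06). It kept only 26%, but its mean of 1.80 FPKM in group A was low, where log2(FPKM + 1) shrinks a fall.

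Members of the BBSome differed widely. Of 7 members, 6 were tested and 4 fell past both thresholds, where 53.0% of all genes tested did. Bbs4 rose at the adjusted p and Bbs9 did not pass. Ttc8 (BBS8), a subunit built of tetratricopeptide repeats, fell furthest of those tested. It read 9.06, 10.3 and 9.60 FPKM in group A against 0.348, 1.03 and 0.772 in group B, with no overlap and a log2 fold change of -2.65 ± 0.13 (SE, adjusted p = 4.70e-11). Bbs2, Bbs7 and Bbs5 kept 12.7%, 15.9% and 30.6%. Bbs1, the subunit that meets the membrane GTPase Arl6, was below the filter, with 0.609, 0.767 and 0.684 FPKM in group A against 0.0487, 0.0751 and 0.0112 in group B, where it rested on 2 to 14 reads.

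Bbs4 and Bbs9 were not among the genes that fell. Bbs4, another repeat subunit, read 5.11, 5.16 and 4.77 FPKM in group A against 6.24, 6.12 and 7.41 in group B. Every library of group B was above every library of group A (log2 fold change 0.33 ± 0.10, SE, adjusted p = 0.00611), and with TPM scaling the change was 0.017 (adjusted p = 0.900), whereas median-ratio scaling gave 1.42 (adjusted p = 9.13e-09). Exons of Bbs4 overlap 194 bases of Adpgk on the opposite strand in GENCODE M21, and whether the counting used strand is not given in the sources used here. Bbs9, a scaffold subunit, read 4.78, 3.99 and 3.97 in group A against 5.31, 4.25 and 6.37 in group B, groups that overlapped, with a log2 fold change of 0.26 ± 0.15 (adjusted p = 0.112, 95% interval -0.06 to 0.57). With median-ratio scaling it was higher past both thresholds, at 1.31 (adjusted p = 1.58e-06). Bbip1, the smallest subunit of the same complex and no member of the list, read 4.89, 5.01 and 5.10 FPKM in group A against 6.65, 6.16 and 6.24 in group B (log2 fold change 0.29 ± 0.10, SE, adjusted p = 0.0105), with no overlap.

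Both BBSome partners fell, Arl6, the GTPase that recruits the coat to membranes, less than the fold threshold. Arl6 read 4.79, 4.32 and 3.54 in group A against 2.22, 1.91 and 2.43 in group B, without overlap, a log2 fold change of -0.71 ± 0.12 (SE, adjusted p = 5.84e-05) that turned to 0.26 with median-ratio scaling. Bbs10, a chaperonin-like protein needed to assemble the BBSome, read 2.20, 2.38 and 2.02 in group A against 0.573, 0.454 and 0.767 in group B. Its log2 fold change of -1.01 ± 0.09 (SE, adjusted p = 1.11e-07) lay just past the fold threshold and dropped under it without A2 (-0.97), B1 (-0.997) or B2 (-0.94).

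Of the motors, the 3 kinesin-2 genes, which drive transport to the tip, fell past both thresholds, where 53.0% of all genes tested did. Neither of the 2 dynein-2 genes, which drive the return, passed both. A difference between the kinds was not tested. Kif3b, a motor subunit of kinesin-2, read 11.6, 12.6 and 12.4 FPKM in group A against 1.13, 1.31 and 1.23 in group B, with no overlap (log2 fold change -2.57 ± 0.08, SE, adjusted p = 6.34e-13). Its partner Kif3a kept 14.2% of group A, Kif3b 10.04% and the adaptor Kifap3 13.2%. Dync2h1, the dynein-2 heavy chain, fell to 39.3% (log2 fold change -0.79 ± 0.09, adjusted p = 9.81e-07). Its mean in group A, 2.28 FPKM, lay below those of the kinesin-2 genes (11.2 to 12.2). At low FPKM the log2(FPKM + 1) scale shrinks a fall, here 2.55-fold, so its place under the fold threshold depends on the scale. Dync2li1, its light intermediate chain, read 11.9, 14.4 and 10.1 in group A against 10.3, 11.1 and 11 in group B. These libraries overlapped, and the change of -0.15 ± 0.11 (SE, adjusted p = 0.228, 95% interval -0.39 to 0.10) did not pass, though it read 1.03 with median-ratio scaling. Kinesin-2 also moves cargo outside cilia. Other dynein-2 genes, no members of the list, fell past both thresholds, among them the intermediate chains Dync2i1 (log2 fold change -1.53 ± 0.10, SE, adjusted p = 1.88e-09) and Dync2i2. The latter went from 6.29, 9.10 and 5.53 FPKM in group A to 0.768, 0.899 and 1.01 in group B (log2 fold change -2.05 ± 0.15, adjusted p = 4.97e-09).

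All 10 transition zone genes tested fell at the adjusted p (72.0% of all genes tested did), 8 of them past both thresholds (53.0%). The median of the 11 kept 14.2% of group A. Cc2d2a, which anchors the gate at its base, kept the smallest share, 3.69%, on 24 to 27 reads a library in group B. B9d2, 1 of the B9-domain proteins that work with Mks1, fell furthest on the log2 scale. It read 6.80, 8.75 and 7.46 FPKM in group A against 0.644, 0.842 and 0.478 in group B, with no overlap (log2 fold change -2.39 ± 0.11, SE, adjusted p = 4.50e-11). B9d1 kept 14.2%, and the 3 tectonics Tctn1, Tctn2 and Tctn3, which shape the membrane composition of the cilium, kept 16%, 9.17% and 7.73%. Rpgrip1l kept 7.87% and Tmem231 28%. Mks1, under the filter, read 1.02, 1.37 and 1.48 in group A against 0.202, 0.200 and 0.257 in group B.

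The largest shares of this group of genes were those of Cep290 (74.4%) and the membrane protein Tmem67 (59.6%). Cep290, which links the microtubules to the membrane, read 2.91, 2.83 and 2.27 FPKM in group A against 2.14, 2.29 and 1.53 in group B, with B2 above A3. Its log2 fold change was -0.30 ± 0.11 (SE, adjusted p = 0.0219), a call that was lost without A1 (adjusted p = 0.0802), A2 (0.0662) or B3 (0.125) and that turned to 0.59 with median-ratio scaling. Exons on the opposite strand overlap Cep290 (4930430F08Rik, 881 bases), Tctn1 (Hvcn1, 1574 bases) and Tmem67 (Rbm12b2, 289 bases), whose values are uncertain to that extent.

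At the basal body, from which the cilium grows, Cep164 and Ofd1 fell and Ttbk2 fell least. Cep164, a distal appendage protein that docks the basal body and recruits Ttbk2, read 5.61, 5.94 and 5.30 FPKM in group A against 1.06, 0.875 and 0.914 in group B, with no overlap (log2 fold change -1.76 ± 0.10, SE, adjusted p = 2.19e-10). Ofd1, a centriole protein, kept 15.3%. Ttbk2, the kinase that starts ciliogenesis, read 7.38, 5.89 and 6.57 in group A against 5.39, 4.04 and 4.69 in group B. The groups did not overlap, and the change of -0.42 ± 0.18 (SE, adjusted p = 0.0435) was lost without A1 (adjusted p = 0.133), A3 (0.0791), B2 (0.143) or B3 (0.0802) and turned to 0.67 with median-ratio scaling. Exons of Ttbk2 overlap 3409 bases of Cdan1 on the same strand in GENCODE M21, so its value is uncertain.

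The ciliary membrane genes showed the lowest median share of the 8 groups, 5.75% of group A. Inpp5e, a phosphatase that keeps the lipid composition of the ciliary membrane, read 5.47, 5.73 and 5.33 FPKM in group A against 0.0817, 0.0294 and 0.0918 in group B. The values of group B rest on 4 to 12 reads a library against 885 to 948 in group A, and no library overlapped (log2 fold change -2.61 ± 0.08, SE, adjusted p = 7.75e-13). Its mean was 81.5-fold lower, which the log2(FPKM + 1) scale understates, and 874 bases of its exons overlap Pmpca on the opposite strand. Arl13b, the small GTPase of the ciliary membrane through which Inpp5e is targeted, read 12.4, 11.2 and 11.7 in group A against 1.06, 1.28 and 1.29 in group B (log2 fold change -2.53 ± 0.09, SE, adjusted p = 3.99e-12). Both stayed lower with median-ratio scaling, past both thresholds.

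For the lowest and the highest gene of each of the 8 groups of genes in group B vs. A, an exact permutation test of the mean FPKM (two-sided) gave p = 0.1, the smallest that 3 libraries against 3 allow, except for Dync2li1 (p = 0.5) and Cep290 (p = 0.2).

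**Figure D2:**
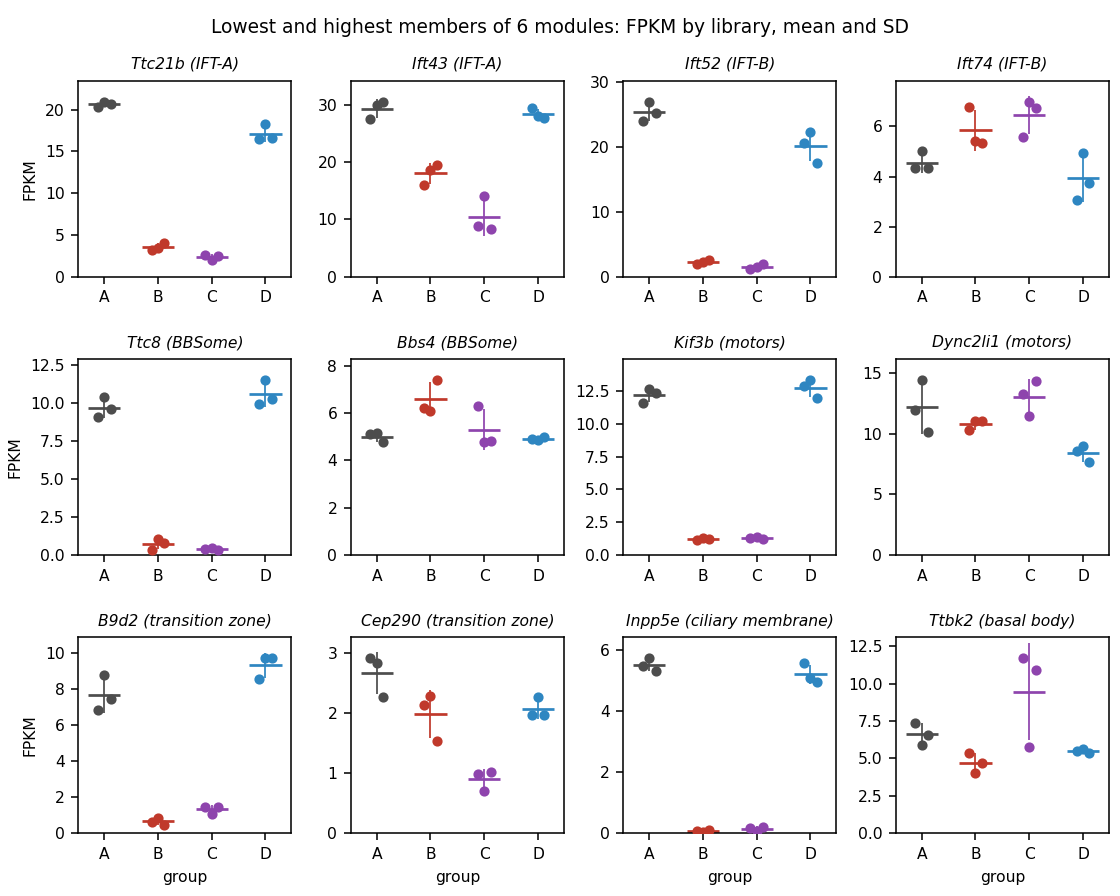
FPKM (linear axis from 0) of 12 genes in the 4 groups, a point for each library, with a horizontal line at the mean and a vertical line of ± 1 SD. Ttc21b, Ift52, Ttc8, Kif3b, B9d2 and Inpp5e stand near the axis in groups B and C, while Ift74, Bbs4 and Dync2li1 do not; Ift74 and Dync2li1 are higher in group C than in group D without overlap.

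Set side by side, the 4 named complexes had overlapping ranges in group B vs. A. Median log2 fold changes over all listed members were -1.68 for IFT-A, -1.60 for the transition zone, -1.36 for IFT-B and -1.24 for the BBSome. The shares of group A ran from 5.47% to 61.5% in IFT-A, 3.69% to 74.4% in the transition zone, 7.55% to 128% in IFT-B and 6.55% to 131% in the BBSome, with medians of 16.6%, 14.2%, 23.0% and 15.9%. Each median was below that of the median gene tested (39.5%). In summed FPKM IFT-A went from 67.9 ± 2.74 to 24.0 ± 2.17, IFT-B from 133 ± 10.6 to 52.2 ± 0.808, the BBSome from 34.3 ± 1.22 to 15.5 ± 1.88 and the transition zone from 47.3 ± 3.34 to 10.2 ± 1.61 (mean ± SD, n = 3 libraries). Differences between the complexes were not tested, and a few members decide the sums: Ift43 made up 18 of the 24 FPKM of IFT-A in group B. With median-ratio scaling 3 of 6 IFT-A, 4 of 12 IFT-B, 2 of 7 BBSome and 4 of 11 transition zone genes were lower past both thresholds. Of all genes tested 25.6% were. Across the 48 genes the log2 fold change had a Spearman's rho of -0.08 with gene length and of -0.35 with the mean FPKM in group A, which read 0.10 when log2 of the ratio of mean FPKM was used in place of log2(FPKM + 1). These are values across genes that share libraries and are given without a test.

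**Figure D3:**
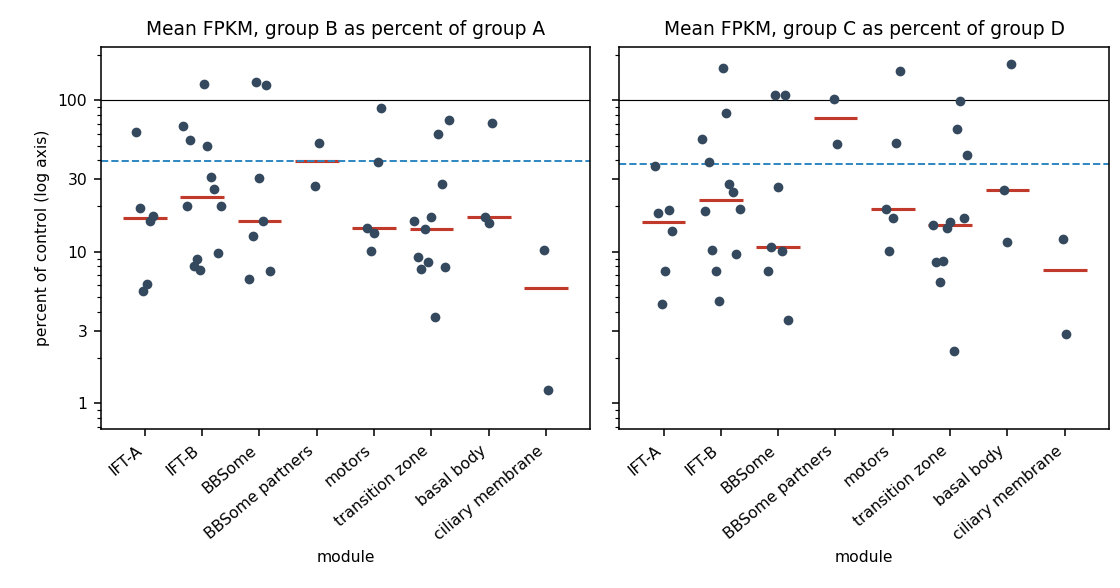
Mean FPKM of each of the 48 genes as a percent of control (log axis), by complex, for group B against A (left) and group C against D (right). Red lines are medians of each complex and the dashed line is the median of all genes tested, 39.5% on the left and 37.8% on the right; most points lie below it and a few, such as Ift74 and Bbs4, lie above 100%.

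The comparison of group C with group D asks the same of cells that all received TCA, and it shares no library with B vs. A. Here 31 members fell past both thresholds and none rose, against 53.3% and 11.2% of all genes tested. Without the libraries numbered 2 these were 31 and none. At the adjusted p 38 fell (71.5% of all genes), 3 rose (20.9%), namely Ift74, Dync2li1 and Ttbk2, and 5 did not pass, namely Ift80, Bbs4, Bbs9, Bbs10 and Tmem231. The median member log2 fold change was -1.43 and the median gene's -1.13. The median member kept 17.3% of group D. Of the genes lower past both thresholds, 29 were the same in both comparisons, 3 were called only in B vs. A (Bbs10, Tmem231 and Rpgrip1l) and 2 only in C vs. D (Ift43 and Ift27). Median-ratio scaling moved the median gene by 1.01, left 17 members lower and 5 higher past both thresholds (27.3% and 25.9% of all genes), and turned the direction of Ift20, Ift80, Arl6, Dync2h1, Tmem67, Tmem231 and Cep290. Across the 48 genes the log2 fold changes of both comparisons had a Pearson's r of 0.91 and a Spearman's rho of 0.93, given as a description.

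The genes that led in B vs. A read alike with TCA. Ift52 read 20.7, 22.3 and 17.6 FPKM in group D and 1.19, 1.46 and 1.88 in group C (log2 fold change -3.08 ± 0.12, SE, adjusted p = 3.84e-12). Ttc8 read 9.90, 11.5 and 10.2 in group D and 0.364, 0.425 and 0.328 in group C (log2 fold change -3.07 ± 0.13, adjusted p = 9.40e-12). Inpp5e read 5.57, 5.10 and 4.94 in group D and 0.186, 0.0607 and 0.197 in group C (log2 fold change -2.44 ± 0.08, adjusted p = 1.20e-12). None of these groups overlapped. On the higher side, Ift74 read 3.08, 4.93 and 3.76 in group D and 5.57, 6.99 and 6.75 in group C, again without overlap (log2 fold change 0.61 ± 0.13, SE, adjusted p = 0.000583). Bbs4 read 4.92, 4.86 and 4.99 in group D and 6.32, 4.76 and 4.84 in group C, and only C1 stood above all of group D. Bbs9 read 4.76, 3.12 and 5.03 in group D and 4.23, 4.85 and 4.89 in group C, with overlap (log2 fold change 0.11 ± 0.15, adjusted p = 0.476).

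By complex, 6 of 6 IFT-A, 8 of 12 IFT-B, 4 of 7 BBSome and 6 of 11 transition zone genes fell past both thresholds in group C vs. D, where 53.3% of all genes did, with medians of -1.59, -1.43, -1.31 and -1.36 on the log2 scale. The shares in the BBSome and the transition zone lie near that of all genes, and with median-ratio scaling the counts were 3, 4, 3 and 3. The 3 kinesin-2 genes fell past both thresholds again, and the 2 ciliary membrane genes did too. Genes of dividing cells summed to 503 to 516 FPKM in group D and 74.7 to 78.9 in group C, and their part in the result was not tested.

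**Figure D4:**
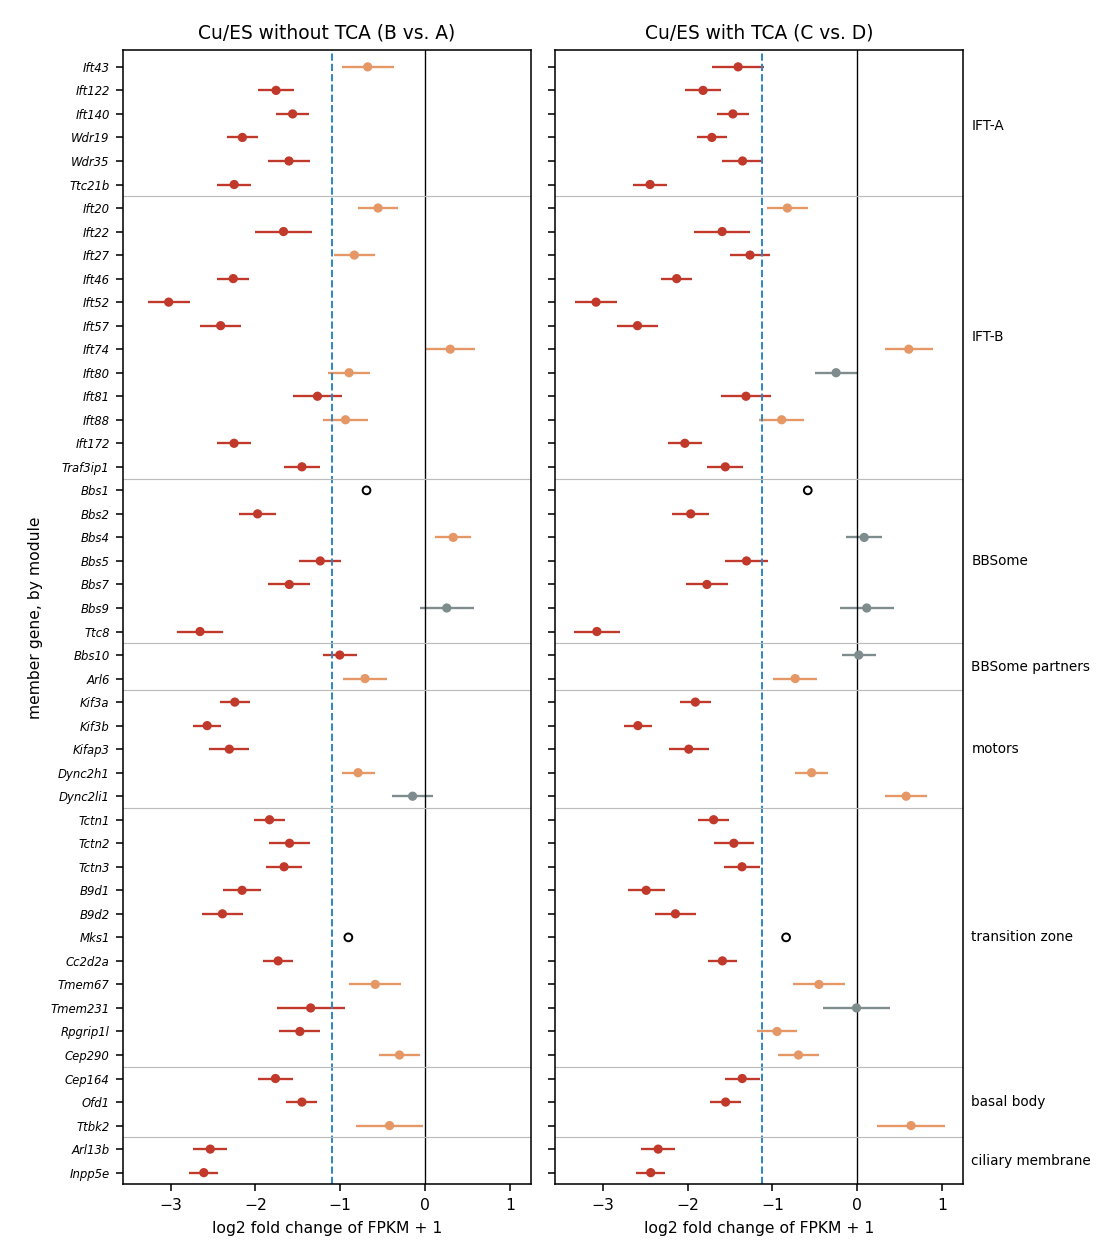
Log2 fold change of FPKM + 1 (x axis) with its 95% interval for each of the 48 genes (y axis), in group B vs. A (left) and group C vs. D (right). Red marks both thresholds, orange the adjusted p only, grey neither, and open circles Bbs1 and Mks1, which were not tested; the dashed line is the median of all genes tested (-1.10 and -1.13), and most genes lie at or left of it on both sides.

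TCA added to Cu/ES moved the set far less. In group C vs. B no member passed both thresholds (1.16% of all genes fell and 1.13% rose past both). In group B 24 of the 48 averaged under 1 FPKM, where log2(FPKM + 1) cannot fall by 1. For these genes a fall past both thresholds was not possible. As a share of group B, the median member stood at 81.9% in group C, with a range from 45.2% (Cep290) to 232% (Bbs10). At the adjusted p 8 fell, against 23.6% of all genes, and 5 rose, against 20.4%. Without the libraries numbered 2, 11 fell and 6 rose; 5 fell without B3, and 3 rose without B1. The genes lower were Ift43, Ttc21b, Ift27, Ift52, Bbs4, Tctn1, B9d1 and Cep290, and the genes higher were Ift80, Bbs10, B9d2, Tmem231 and Ttbk2. The median of the 48 was -0.07 on the log2 scale and that of all genes -0.03.

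Ift43 fell furthest on the log2(FPKM + 1) scale, to 57.5% of group B, while Cep290 kept a smaller share, 45.2%, and so did Cc2d2a, Ttc8 and Tctn3, which did not pass the test. It read 16, 18.6 and 19.4 FPKM in group B and 8.79, 14.1 and 8.23 in group C, with every library of group C below group B and C2 nearest to it (log2 fold change -0.77 ± 0.14, SE, adjusted p = 0.00068). Cep290 read 2.14, 2.29 and 1.53 in group B and 0.979, 0.697 and 1.02 in group C, without overlap (-0.65 ± 0.11, adjusted p = 0.000456). Ift27, a small GTPase that helps the BBSome leave the cilium, read 18.1, 13.5 and 14.9 in group B and 9.82, 10.2 and 10.9 in group C, also without overlap (-0.54 ± 0.11, adjusted p = 0.00143). These 3 belong to different structures of the cilium. Of the genes higher, Ttbk2 read 5.39, 4.04 and 4.69 in group B and 11.7, 5.78 and 10.9 in group C, with C1 and C3 high and C2 close to group B (log2 fold change 0.83 ± 0.18, SE, adjusted p = 0.00243). Tmem231 read 0.718, 2.26 and 0.900 in group B and 2.52, 2.29 and 2.62 in group C, and B2 alone came near group C (0.66 ± 0.19, adjusted p = 0.0105). That call was lost without B1 (adjusted p = 0.0551). Bbs10 read 0.573, 0.454 and 0.767 in group B and 1.55, 1.30 and 1.32 in group C, with no overlap (0.58 ± 0.09, adjusted p = 0.000249). The exact permutation test gave p = 0.1 for each of these 6 genes, the smallest possible.

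TCA alone also left every member short of both thresholds. In group D vs. A 10 members fell at the adjusted p (11.5% of all genes) and 1 rose (10.5%), and past both thresholds 0.151% of all genes fell and 0.0659% rose. The genes lower were Wdr19, Wdr35, Ift172, Bbs10, Dync2li1, Tctn1, Tctn3, Tmem67, Tmem231 and Rpgrip1l, 5 of them of the transition zone. Their number was 11 without the libraries numbered 2 and 6 without A2, D1 or D3. The median of the 48 was -0.18, with 42 lower and 6 higher, and that of all genes was -0.01, with 52.6% of all genes tested lower.

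Tmem231, a membrane protein of the gate, read 4.48, 5.17 and 4.19 FPKM in group A against 2.27, 3.03 and 2.25 in group D, with no overlap (log2 fold change -0.68 ± 0.19, SE, adjusted p = 0.0193). The call was lost without A1 (adjusted p = 0.0526), A2 (0.0641), D1 (0.0720) or D3 (0.0721). Wdr19 read 4.65, 5.14 and 4.48 in group A against 2.75, 3.39 and 2.94 in group D (-0.52 ± 0.08, adjusted p = 0.00104), and Dync2li1 read 11.9, 14.4 and 10.1 in group A against 8.55, 9.0 and 7.63 in group D (-0.48 ± 0.11, adjusted p = 0.00967), both without overlap. Ift20, which also acts at the Golgi in sorting membrane proteins to the cilium, was the 1 gene that rose. It read 23.2, 27 and 24.3 in group A against 37.7, 29.3 and 32.6 in group D, all of group D above group A (0.40 ± 0.11, SE, adjusted p = 0.0207). This call was lost without A1 (adjusted p = 0.0852), A3 (0.0642), D1 (0.0993) or D3 (0.0561). The exact permutation test gave p = 0.1 for each of these 4 genes.

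Whether TCA acted differently with and without Cu/ES was tested by the interaction term, the log2 fold change of C vs. B minus that of D vs. A. It passed the adjusted p for 11 of the 46 members, against 37.5% of all genes, and both thresholds for 3, Tmem231, Ttbk2 and Bbs10, against 3.49%. The number was 12 without the libraries numbered 2 and 7 without A1. For Tmem231 the term was 1.34 ± 0.26 (SE, adjusted p = 0.00162): the gene was lower with TCA alone and higher when TCA was added to Cu/ES. For Bbs10 it was 1.02 ± 0.13 (adjusted p = 0.000112), and the gene read 1.44, 1.47 and 1.17 FPKM in group D, close to group C. For Ttbk2 it was 1.05 ± 0.26 (adjusted p = 0.00664). In the direction below 0, it was -0.73 ± 0.20 for Ift43 (adjusted p = 0.0127), which read 29.4, 28 and 27.6 FPKM in group D, and -0.43 ± 0.16 for Ift27 (adjusted p = 0.0443), a call lost when A1, A3, B1, B3, C1, C2, C3, D2 or D3 was left out in turn, at adjusted p up to 0.111.

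**Figure D5:**
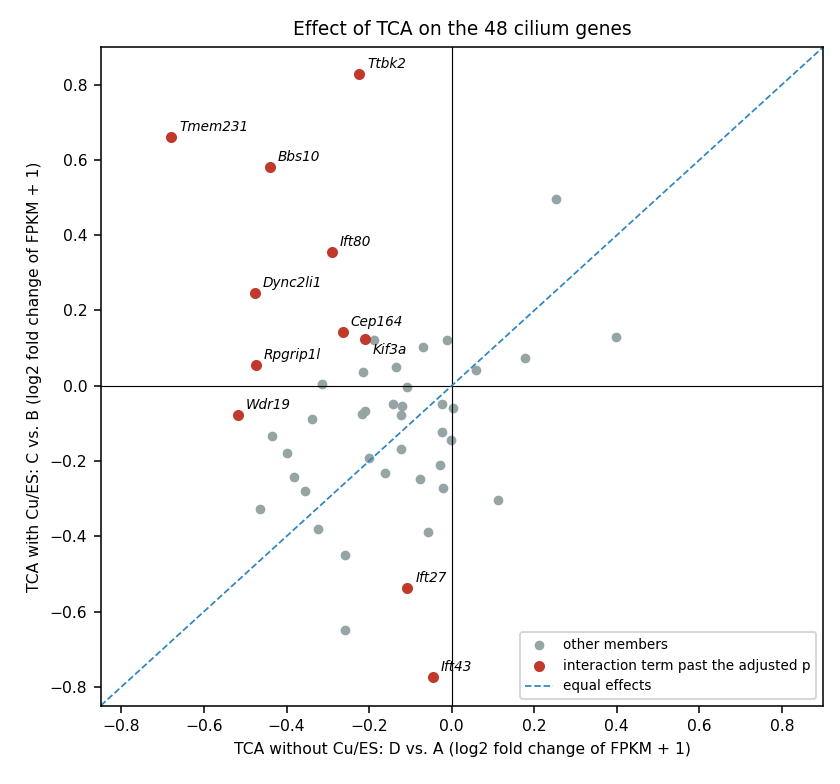
Log2 fold change of FPKM + 1 by TCA without Cu/ES (D vs. A, x axis) and with Cu/ES (C vs. B, y axis), a point for each of the 48 genes; red points passed the adjusted p of the interaction and the dashed line marks equal effects. Tmem231, Ttbk2 and Bbs10 lie furthest above the line and Ift43 and Ift27 below it.

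Other cilium genes, a list of 65 that are no members and that leaves out motile cilia, are given for comparison: 63 were in the table, 49 were tested, and 37 fell and none rose past both thresholds in group B vs. A, where 53.0% of all genes fell and 10.1% rose. With median-ratio scaling 15 fell and 6 rose, against 25.6% and 26.0% of all genes. The others were not tested here. This list too was chosen with earlier results of these data known, so its falls are no independent support. By role, 10 of 12 other transition zone genes tested fell, 15 of 20 of the basal body and membrane, 6 of 7 motor genes, 2 of 2 IFT-B genes and 1 of 4 BBSome genes and partners. Pde6d, which carries lipid-modified proteins such as Inpp5e to the cilium, read 26.3, 26 and 27.6 FPKM in group A against 1.18, 1.43 and 1.42 in group B (log2 fold change -3.56 ± 0.13, SE, adjusted p = 4.96e-12). Ift25 of IFT-B read 10.2, 9.87 and 8.42 in group A against 2.89, 2.23 and 2.49 in group B (-1.57 ± 0.14, adjusted p = 4.47e-08). Bbs12, a chaperonin-like partner of Bbs10, read 2.98, 2.53 and 2.78 in group A against 0.222, 0.223 and 0.312 in group B (-1.59 ± 0.09, adjusted p = 2.23e-10). None of these groups overlapped.

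Of the transcription factors of ciliary genes, 9 of 10 listed were in the table and 4 were tested, of which 3 fell past both thresholds, where 53.0% of all genes did. With median-ratio scaling 0 fell and 1 rose (limma, both thresholds). Rfx5, which is better known from immune genes, read 10.1, 10.4 and 10.6 FPKM in group A against 2.77, 2.98 and 2.27 in group B (log2 fold change -1.63 ± 0.09, SE, adjusted p = 1.72e-10). Transcript levels alone do not show whether these cells bear a cilium, or of which kind. Genes of motile cilia, which carry dynein arms for beating, are given for comparison: of 15 listed 13 were in the table, 9 did not reach 0.1 FPKM in any library, and 1 was tested. That gene, Rsph1, read 3.22, 5.21 and 4.31 in group A against 0.629, 0.906 and 0.147 in group B (-1.76 ± 0.20, adjusted p = 1.03e-06).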

How the data were processed

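RNA of AML12 cells (12 libraries, 4 groups of 3, grouped by the treatment in the sample labels) was poly(A)-selected and read on a NovaSeq instrument. The authors deposited FPKM values per gene and library. Per the labels' processing notes, fastp, HISAT2, HTSeq and the build GRCm39 were used; versions, annotation and the strand setting are not given in the sources used here. No coordinate of that build is printed. 

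Members and lists were chosen with earlier results of these data known. log2(FPKM + 1) of the 10615 genes averaging 1 FPKM or more was fitted with limma 3.58.1 (R 4.3.3, empirical Bayes with trend, 8 residual degrees of freedom), and p-values were two-sided with Benjamini-Hochberg adjustment over all of them. The thresholds of adjusted p under 0.05 and absolute log2 fold change above 1 are those of the study. Named with library values were the lowest and highest members of each group of genes in B vs. A, up to 3 rises and 3 falls past the adjusted p in C vs. B, D vs. A and the interaction, and 1 gene per list of other cilium genes, of which 1 is not reported here; Ift81, Bbip1, Bbs1, Bbs9 and Mks1, and Ift52, Ttc8, Inpp5e, Ift74 and Bbs4 in C vs. D, were added after values were seen or as genes under the filter.

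All 22212 genes above 0 in at least 2 libraries gave whole reads (within 0.05 reads) in every library, so limma-voom was run on recovered reads. These cover counting error only. No pair of libraries agreed within counting noise. Same-numbered libraries of groups A and B deviated together weakly (r of 0.17, 0.17 and 0.14), and the labels state no pairing. Those of the other groups compared did not in every pair, though A2 and D2 reached 0.58. A3 and D1, of different numbers, reached 0.37. The steps were tested on simulated data. Alternatives were a pseudocount of 0.1, no filter or a mean FPKM of at least 5, TPM and median-ratio scaling, a replicate block, limma-voom, each library left out, and, chosen after seeing the data, all libraries numbered 2 left out. Tables came from Python 3.11.15 (pandas 2.3.3, scipy 1.17.1) and figures from matplotlib 3.10.9.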

Additional observations from a re-analysis of the deposited data

Results flagged for a closer look

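For 11 members the effect of TCA with Cu/ES (C vs. B) differed from its effect without Cu/ES (D vs. A) by the interaction term of limma, with Benjamini-Hochberg adjustment over all genes tested, of which 37.5% passed. The term was above 0 for 9: Tmem231 with 1.34 ± 0.26 (SE, adjusted p = 0.00162), Ttbk2 with 1.05 ± 0.26 (SE, adjusted p = 0.00664), Bbs10 with 1.02 ± 0.13 (SE, adjusted p = 0.000112), Dync2li1 with 0.72 ± 0.16 (SE, adjusted p = 0.00351), Ift80 with 0.65 ± 0.16 (SE, adjusted p = 0.00765), Rpgrip1l with 0.53 ± 0.16 (SE, adjusted p = 0.0182), Wdr19 with 0.44 ± 0.12 (SE, adjusted p = 0.0102), Cep164 with 0.41 ± 0.14 (SE, adjusted p = 0.0306) and Kif3a with 0.33 ± 0.12 (SE, adjusted p = 0.0387). It was below 0 for 2, Ift43 with -0.73 ± 0.20 (SE, adjusted p = 0.0127) and Ift27 with -0.43 ± 0.16 (SE, adjusted p = 0.0443). Wdr19 averaged 0.293 FPKM in group B and 0.224 in C, where log2(FPKM + 1) has little room to fall. As a share it was lower with TCA in both settings, at 76.6% of group B in C and 63.6% of group A in D. Rpgrip1l was also low with Cu/ES, at 0.180 FPKM in B and 0.228 in C. Dync2li1 read 11.9, 14.4 and 10.1 FPKM in group A, 10.3, 11.1 and 11 in B, 13.3, 11.4 and 14.3 in C and 8.55, 9.0 and 7.63 in D. Ift80 read 11.1, 14.3 and 11.2 in group A, 5.08, 7.08 and 6.15 in B, 8.14, 7.49 and 8.50 in C and 8.95, 10.6 and 9.77 in D.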

How the results depend on the processing

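Median-ratio scaling gave 18 members lower and 4 higher past both thresholds in B vs. A, and 17 and 5 in C vs. D; it turned Ift43 to 0.56, Arl6 to 0.26, Dync2li1 to 1.03, Cep290 to 0.59 and Ttbk2 to 0.67 in B vs. A, and TPM scaling turned Ift74 to -0.015. A mean FPKM of at least 5, which tests fewer genes and fewer members, gave 8 lower in B vs. A, 10 in C vs. D, 1 in D vs. A, 2 higher in C vs. B and 6 in the interaction. Without a filter 3 rose in C vs. B, 0 in D vs. A (against 1), and 7 passed the interaction. A pseudocount of 0.1 gave 3 lower in D vs. A. Limma-voom on recovered reads gave 4 lower in C vs. B and 17 in D vs. A. With the libraries numbered 2 left out, 2 rose in D vs. A. Leaving out libraries gave 30 to 32 lower in B vs. A, 31 to 32 in C vs. D, 5 to 11 lower (9 without C2) and 3 to 6 higher in C vs. B, 6 to 11 lower and 0 to 2 higher in D vs. A, and 7 to 12 in the interaction. Except for median-ratio scaling, the shares of all genes under these settings are not given here. The counts therefore show how calls move with the processing and are no result about the members.

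The median of a complex minus that of all genes in B vs. A was below 0 in all alternatives run. The unfiltered value is not a like comparison. Without a filter, genes averaging under 1 FPKM enter the median of all genes, and log2(FPKM + 1) holds them near 0. The difference then lies close to the complex's own median, which was -1.68 for IFT-A and -1.24 for the BBSome. IFT-A (-0.58) read -0.87 with TPM, -1.26 with voom, -0.75 at a mean FPKM of 5, -0.90 with median ratios, -1.67 unfiltered, -1.18 at the low pseudocount and -0.64 to -0.53 with libraries left out. IFT-B (-0.26) read in that order -0.40, -0.86, -0.43, -0.46, -1.35, -0.70 and -0.34 to -0.20. The transition zone (-0.50) read -0.89, -1.49, -0.66, -0.92, -1.58, -1.43 and -0.54 to -0.45. The BBSome (-0.14) read -1.35 with voom, -0.30, -0.39, -1.22, -1.16 and -0.25 to -0.061, and with TPM it moved by less than the spread. The cause was not tested.

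Same-numbered libraries deviated together with a mean r of 0.13 (-0.17 to 0.58, over 0.1 in 11 of 18 pairs), against -0.06 for libraries of different numbers (over 0.1 in 7 of 36 pairs). Deviations from a group's mean sum to 0 within the group, so the second mean follows largely from the first. All 3 pairs were over 0.1 between groups A and B, and not in the other comparisons. With the replicate block 32 members fell in B vs. A and 31 in C vs. D, 10 fell and 5 rose in C vs. B, 12 fell and 1 rose in D vs. A, 11 passed the interaction, and of the named calls Ift27's interaction was lost (adjusted p = 0.0551). The shares of all genes with this block are not given here either. Among the single-gene values, 400 kept direction and side of the threshold, 43 lost the call, 2 gained it and 6 turned. Depth limits genes such as Bbs1, Inpp5e, Tctn3 and Cc2d2a, with under 10 reads in a library of group B or C.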

Other observations

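Some cilium genes outside the 48 also rose after Cu/ES or did not pass the test, and they are named here after their values were seen. Cep83, a distal appendage protein of the basal body, read 18.1, 13.8 and 17.1 FPKM in group A, 26.2, 27.4 and 28.9 in group B, 30.3, 26.7 and 28.2 in group C and 15.4, 13.4 and 15.8 in group D (log2 fold change B vs. A 0.72 ± 0.10, SE, limma adjusted p = 4.87e-06). Lztfl1, which regulates traffic of the BBSome, read 2.01, 2.65 and 1.94 in group A against 3.54, 2.98 and 2.62 in group B (0.34 ± 0.11, adjusted p = 0.0104). Rab11a, a GTPase of recycling endosomes that also serves ciliogenesis, read 42.7, 42.6 and 41.3 in group A against 43.9, 37.5 and 45.9 in group B (0.00 ± 0.07, adjusted p = 0.958). In the other direction Cby1, which marks the ciliary base, read 12.7, 12.6 and 12.9 in group A against 0.159, 0.183 and 0.272 in group B (-3.51 ± 0.09, adjusted p = 1.95e-13), and Kif7, a kinesin of smoothened signaling at the tip, read 2.94, 3.41 and 2.70 in group A against 0.0170, 0.0224 and 0.0175 in group B (-1.97 ± 0.08, adjusted p = 1.58e-11).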
